A study of Mus musculus with 9 samples.

Results

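The injury that was present under enpatoran was measured as the difference between 3 drug-treated injured hearts and 3 sham-operated hearts, which are 6 of the 9 libraries of the series. Enpatoran is a small-molecule antagonist of TLR7, an endosomal receptor for single-stranded RNA. All hearts came from male wild-type (WT) mice aged 9 to 10 weeks, 1 library per heart. The Enpa-I/R hearts had the left anterior descending (LAD) coronary artery occluded for 45 min, then 24 h of reperfusion (ischemia-reperfusion, I/R), and the mice were injected intraperitoneally with enpatoran at 5 mg/kg, 2 times. The NS-Sham hearts had a thoracotomy without occlusion, and the mice received normal saline (NS). The hearts of the NS-I/R group, also 3, had the same occlusion and received saline, and are given beside the others. The first injection came 1 h before ischemia, and the labels disagree on whether the second followed 2 h later or right after ischemia. No group had sham surgery with enpatoran, so an effect of the drug that does not depend on injury cannot be told apart from remaining injury. Hearts were flash-frozen and powdered, so that nuclei from the ischemic wall and from the rest of the heart share a library. The members were barcodes that held 500 or more detected genes and no more than 5% mitochondrial UMIs (unique molecular identifiers, which stand for single captured RNA molecules), which left 28117 nuclei in the 6 libraries and 44430 of 56766 barcodes in all 9.

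Myocardium that is starved of blood and then reperfused dies in part, and the dead cells release RNA and proteins that toll-like receptors and other sensors detect. Neutrophils enter within hours, followed by monocytes that become macrophages, while resident macrophages are partly lost. Fibroblasts leave their resting state and build a provisional matrix, and surviving cardiomyocytes turn down the genes of contraction and fat burning and turn on a stress program that includes the natriuretic peptides. ITGAM and ITGB2, named with TLR7 in the study's title, are the chains of CD11b/CD18, an integrin of neutrophils and monocytes.

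UMIs kept per library ran from 15.13 to 34.84 M in NS-Sham, from 18.25 to 29.78 M in Enpa-I/R and from 21.87 to 25.91 M in NS-I/R. Replicate 3 of NS-I/R stood apart: its mean distance in log CPM was 50.81 to the Enpa-I/R libraries and 74.04 to the other NS-I/R libraries. Results against NS-Sham that its removal moves are given with and without it. Of the differences between Enpa-I/R and NS-I/R, only the total count of called genes is also given without it. Those of single genes and of lists are given with it only. Sums over all nuclei cannot tell more nuclei of a type from more RNA per nucleus. Pairs of libraries shared 1 to 13 barcodes. Levels are in CPM, UMI counts scaled to a common library total, with libraries scaled by TMM factors of 0.947 to 1.078, listed for replicates 1, 2 and 3 in that order. Differences are log2 fold changes against NS-Sham ± SE from edgeR's quasi-likelihood test, and a gene is called at an adjusted p under 0.05. Nothing in the labels says more about how the 3 hearts of a group were kept or processed together.

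Of 18260 genes tested over all nuclei, 3942 were called in Enpa-I/R against NS-Sham (21.6%), 2070 higher (11.3%) and 1872 lower (10.3%). A fold of over 2 was estimated for 796 of the higher and 754 of the lower genes. In NS-I/R against the same NS-Sham libraries, 8829 were called (48.4%), 4410 higher and 4419 lower. Because the controls are shared, the 2 comparisons are not independent and are only set side by side. Between the injured groups themselves, 3056 genes were called (16.7%), of which Enpa-I/R had 1408 higher (7.71%) and 1648 lower (9.03%). The first count was 6066 without NS-I/R replicate 3. It fell to between 2376 and 2624 without any single one of NS-Sham replicates 1, 2 and 3 and Enpa-I/R replicates 1 and 3. The third count was 8247 without NS-I/R replicate 3, and it fell to between 265 and 1981 without any other single library except NS-Sham replicate 2.

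The leading genes were the 10 largest called changes in each direction with at least 10 CPM in the higher group and no overlap of libraries, which the rule itself requires. The 10 largest increases included genes of myeloid cells and of activated fibroblasts. Chil3, a chitinase-like protein of monocytes and neutrophils, stood at 0, 0.0607 and 0.0693 CPM in NS-Sham and at 22, 38.4 and 12 CPM in Enpa-I/R, a ratio of 524 with a 95% counting interval of 179 to 2540, since NS-Sham held 3 UMIs. S100a9, a calcium-binding protein of neutrophils, went from 0.348, 0.303 and 0.208 to 22.3, 37.7 and 20.4 CPM (log2 fold change 6.48 ± 0.55, adjusted p = 9.24e-05). Arg1, the arginase of wound macrophages, went from 0.348, 0.546 and 0.208 to 28.2, 50.8 and 30.9 CPM (6.47 ± 0.40, adjusted p = 1.98e-05). Replicate 2 of Enpa-I/R was the highest of its group for Chil3, S100a9 and Arg1. Slfn4, S100a8, Spp1, Cd300lf, Hmga2, Cxcl5 and Tnc complete the 10, with log2 fold changes of 5.42 to 6.85. By class of nucleus (named from markers, below), 64.5% of the S100a9 UMIs in Enpa-I/R were in neutrophil-like nuclei, 88.3% of those of Arg1 in macrophage-like nuclei, and 88.8% of those of Hmga2, a chromatin protein of growing cells, in fibroblast-like nuclei.

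**Figure D1:**
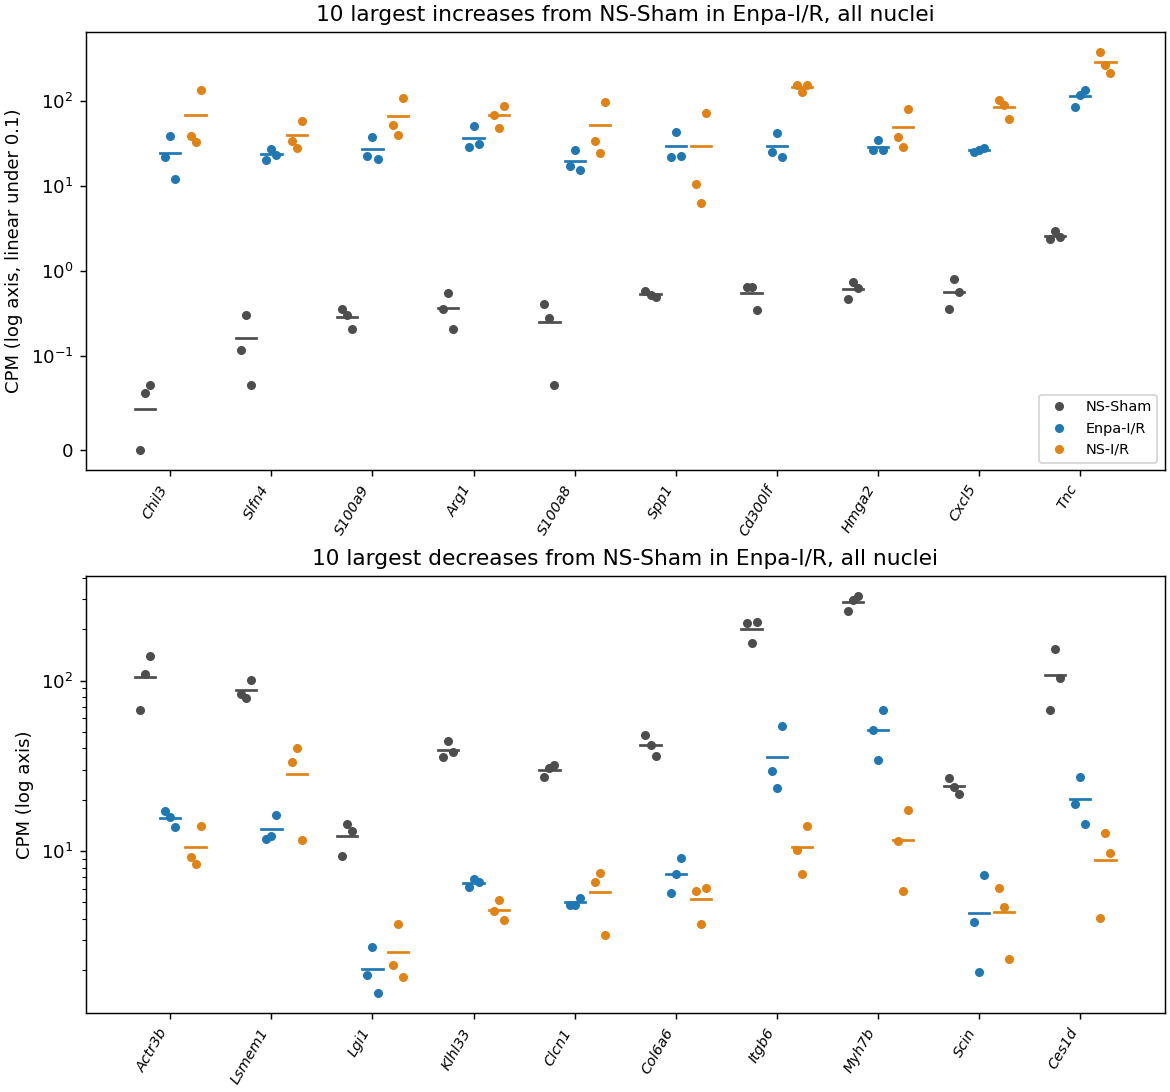
CPM over all nuclei (vertical, log axis) of the 10 largest called increases (upper panel) and decreases (lower panel) in Enpa-I/R against NS-Sham. Each point is 1 library, each bar a group mean, and NS-I/R is shown beside them, where Cd300lf and Tnc, for example, lie higher than in Enpa-I/R.

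The 10 largest decreases included 6 genes with most of their Enpa-I/R UMIs in cardiomyocyte-like nuclei. Actr3b, an actin-related protein, fell from 66.9, 109 and 139 to 17.2, 15.7 and 13.9 CPM (-2.75 ± 0.27, adjusted p = 1.96e-04), and Lsmem1, a single-pass membrane protein, from 83.6, 78.8 and 101 to 11.7, 12.3 and 16.3 CPM (-2.71 ± 0.38, adjusted p = 9.65e-04). Lsmem1 was at 33.5, 40.3 and 11.6 CPM in NS-I/R, so that only the third NS-I/R library was as low. Myh7b, a myosin heavy chain, fell from 258, 298 and 316 to 51.6, 34.4 and 67.4 CPM (-2.51 ± 0.34, adjusted p = 8.94e-04). Itgb6, a chain of an integrin that activates TGF-beta, fell from 219, 166 and 221 to 29.4, 23.6 and 53.9 CPM (-2.51 ± 0.31, adjusted p = 5.90e-04), with 95.1% of its Enpa-I/R UMIs in cardiomyocyte-like nuclei. Klhl33, Clcn1, a muscle chloride channel, Lgi1, Scin, Ces1d and Col6a6, a collagen VI chain of which 88.3% of UMIs were in fibroblast-like nuclei, make up the rest, at -2.61 to -2.43 on the log2 scale.

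Lists of genes by role were read against the shares of all genes called, 11.3% higher and 10.3% lower, and against a median log2 fold change of 0.0036 over all genes tested. They are summarised in the plot of called genes by list. Neutrophil genes (16 of 19 tested rose, median 4.94), NF-kB and cytokine feedback genes (12 of 15 rose, median 0.76), monocyte-derived macrophage genes (14 of 18 rose, median 1.93) and cytokines and chemokines (17 of 24 rose, 1 fell, median 2.57) had the largest shares called higher. Unfolded protein and amino acid stress genes followed with 14 of 21 higher and 2 lower. Sarcomere and excitation-contraction genes (12 of 28 lower, 3 higher), circadian clock genes (7 of 19 lower, 2 higher) and resting fibroblast genes (7 of 20 lower, 0 higher) had the largest shares of decreases.

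**Figure D2:**
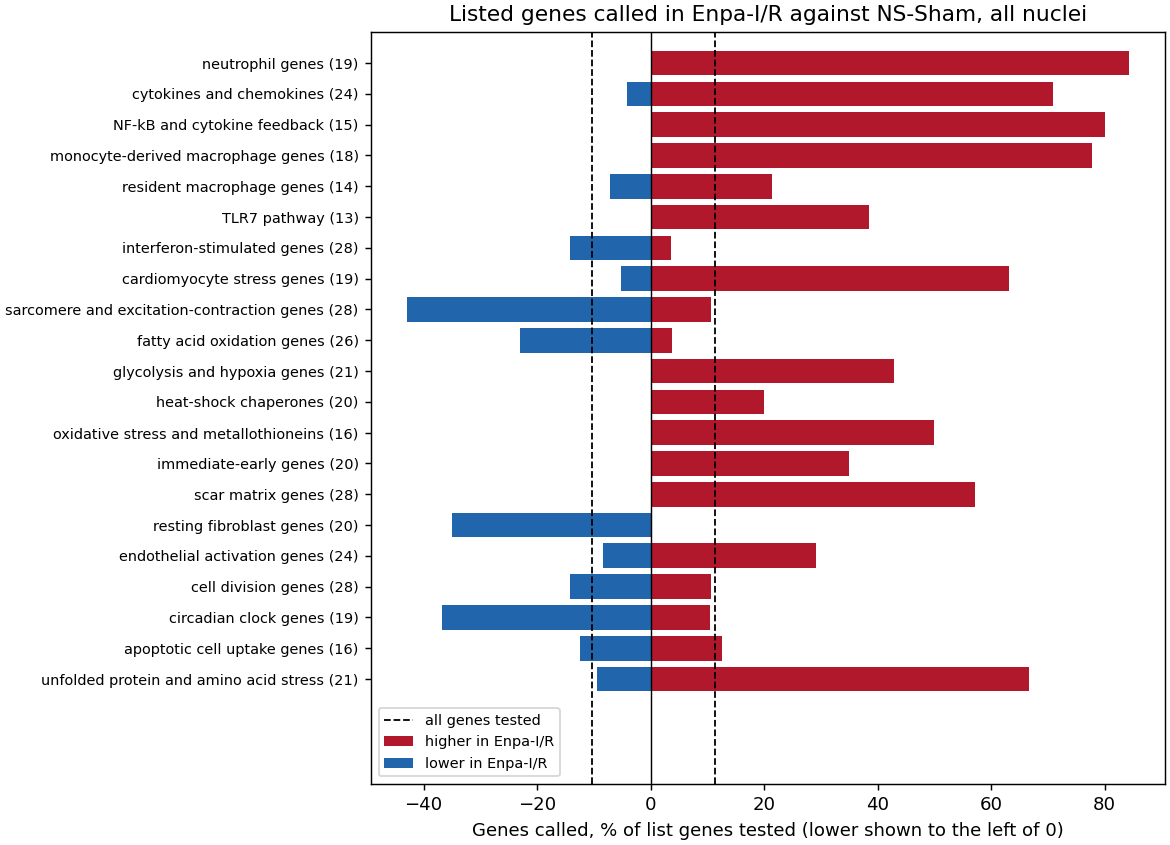
Share of each list's tested genes called higher (red, right of 0) or lower (blue, left of 0) in Enpa-I/R against NS-Sham over all nuclei, in % of the genes tested (number in brackets). Dashed lines mark the shares of all genes, 11.3% and 10.3%; 8 lists reach 50% or more higher and none reaches 50% lower.

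Leukocyte genes were among the largest changes. Lcn2, an iron-binding protein of neutrophils and injured tissue, went from 0.755, 0.425 and 0.97 to 28.6, 25.9 and 14.4 CPM (5.12 ± 0.41, adjusted p = 6.04e-05). Csf3r, the receptor for the neutrophil growth factor G-CSF, went from 4.88, 3.76 and 3.05 to 44, 88.1 and 36.4 CPM (3.84 ± 0.73, adjusted p = 0.00474). In NS-I/R, Csf3r was at 41.1, 33.4 and 209.6 CPM, with the Enpa-I/R values inside that range. Retnlg, a marker of mature neutrophils, was at 2.73, 3.65 and 2.11 CPM in Enpa-I/R, against 0.0581, 0.0303 and 0.0693 CPM (3 UMIs in all) in NS-Sham and 41.5, 26.2 and 22.4 CPM in NS-I/R. The injured groups did not overlap for Retnlg, and the difference between them was -3.41 ± 0.27, adjusted p = 7.82e-04. Retnlg, Lcn2 and Csf3r were chosen after their values were seen. Of the 19 neutrophil genes, 11 were called lower in Enpa-I/R than in NS-I/R and 0 higher, beside 9.03% and 7.71% of all genes.

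Itgam rose from 6.27, 7.04 and 7.14 to 48.2, 78.4 and 44.5 CPM (3.06 ± 0.24, adjusted p = 6.04e-05) and was at 211, 170.4 and 137 CPM in NS-I/R, with no overlap between any groups. The direct difference between the injured groups was -1.60 ± 0.22, adjusted p = 0.00611. Itgb2 rose from 3.72, 3.12 and 2.29 to 11, 17 and 10.5 CPM (2.06 ± 0.23, adjusted p = 3.62e-04), and its difference from NS-I/R was -0.65 ± 0.21, adjusted p = 0.061. Tlr7 was at 8.82, 10.9 and 5.54 CPM in NS-Sham and 7.44, 11 and 7.29 CPM in Enpa-I/R, with overlapping libraries (0.01 ± 0.25, adjusted p = 0.979). Its UMIs in Enpa-I/R were 90.1% in macrophage-like nuclei, and those of Itgam were 69.7% there and 19.6% in neutrophil-like nuclei. Of the 13 tested genes of the TLR7 pathway list, 5 rose and 0 fell, with a median of 0.19. The 5 were the adaptor Myd88, the kinase Irak4, the transcription factor Irf5, and Itgam and Itgb2. The list holds these integrin chains beside genes of TLR signalling, and Itgam is also in the monocyte-derived macrophage list. Without NS-Sham replicate 2, 3 of the 13 were called. The call of Irf5 was lost without any single one of NS-Sham replicates 1, 2 and 3 and Enpa-I/R replicates 1 and 2 (adjusted p = 0.0826 to 0.163) and that of Irak4 without NS-Sham replicate 2 (adjusted p = 0.0531). Myd88, Irak4 and Irf5 were chosen after their values were seen.

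Among signalling proteins, chemokines that draw neutrophils and monocytes stayed above sham. Of the 24 cytokines and chemokines, 13 were called lower in Enpa-I/R than in NS-I/R and 0 higher, beside 9.03% and 7.71% of all genes. Cxcl5 went from 0.348, 0.789 and 0.554 to 25.2, 26.1 and 27.9 CPM (5.44 ± 0.27, adjusted p = 1.61e-05), and 79.3% of its Enpa-I/R UMIs were in fibroblast-like nuclei. Ccl2, the main attractant of monocytes, went from 3.19, 4.03 and 4.43 to 43.6, 43.2 and 45.5 CPM (3.50 ± 0.23, adjusted p = 1.98e-05), and its Enpa-I/R libraries lay within 3 CPM of each other. Both remained below NS-I/R, where Cxcl5 was at 101, 89 and 61 CPM and Ccl2 at 121, 77.9 and 67.6 CPM (differences -1.66 and -1.01, adjusted p = 0.00361 and 0.014). Cxcl2 went from 0.29, 0.334 and 0.832 to 10.3, 9.99 and 17 CPM (4.79 ± 0.74, adjusted p = 0.00178) against 168, 81.6 and 30.2 CPM in NS-I/R. Il6, the acute-phase cytokine, was called higher than sham (4.64 ± 0.99, adjusted p = 0.00874) at 2.98, 3.54 and 5.88 CPM, but not without NS-Sham replicate 2 (adjusted p = 0.0549). It was at 80.8, 39.1 and 12.5 CPM in NS-I/R. The monocyte chemokine Ccl6 was at 41.8, 62 and 43.3 CPM, overlapping NS-I/R at 55.3, 45.2 and 73.3 CPM, after 7.84, 6.95 and 5.96 CPM in NS-Sham (2.82 ± 0.22, adjusted p = 6.04e-05). Cxcl9, a chemokine driven by interferon gamma, was the member that fell, from 0.929, 1.52 and 2.08 to 0.346, 0.211 and 0.352 CPM (-2.27 ± 0.43, adjusted p = 0.00505). Ccl2, Il6, Ccl6 and Cxcl9 were chosen after their values were seen.

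Feedback regulators of cytokine signalling moved with these ligands. Socs3, an inhibitor of IL-6 family receptors, rose from 1.51, 2.49 and 3.26 to 19.6, 16.6 and 12.7 CPM (2.77 ± 0.30, adjusted p = 3.12e-04), and Ier3 from 6.85, 9.4 and 10.2 to 37.8, 32.7 and 25.2 CPM (1.86 ± 0.21, adjusted p = 3.73e-04). Both were higher still in NS-I/R, with differences of -1.59 ± 0.26, adjusted p = 0.0101 for Socs3 and -1.10 ± 0.20, adjusted p = 0.0124 for Ier3. Of the immediate-early genes, which code for transcription factors switched on within minutes, 7 of 20 rose and 0 fell (median 0.45). Myc was at 10.8, 11.5 and 10.7 CPM after 2.84, 2.15 and 2.43 CPM in sham (2.16 ± 0.17, adjusted p = 6.18e-05). Egr1, chosen after its values were seen, was at 19, 22.9 and 46.6 CPM in NS-Sham, 19.2, 16.9 and 16.7 CPM in Enpa-I/R and 164, 83.5 and 28.7 CPM in NS-I/R, and it did not pass the test against sham (-0.74 ± 0.53, adjusted p = 0.364).

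Matrix genes of the forming scar rose in 16 of 28 cases and fell in 0 (median 0.98). Tnc, the provisional matrix protein tenascin C, went from 2.32, 2.91 and 2.49 to 85.2, 118 and 134 CPM (5.42 ± 0.27, adjusted p = 1.61e-05), with NS-I/R at 373, 262 and 211 CPM and 87% of its Enpa-I/R UMIs in fibroblast-like nuclei. Spp1, osteopontin, went from 0.581, 0.516 and 0.485 to 22, 42.9 and 22.2 CPM (5.77 ± 1.02, adjusted p = 0.00342), and 73.5% of its UMIs were in macrophage-like nuclei. In NS-I/R, Spp1 was at 10.4, 6.18 and 70.7 CPM, so that replicate 3 was above all Enpa-I/R libraries and the other 2 below them. Timp1, an inhibitor of matrix proteases, was at 55.2, 44.6 and 34.5 CPM after 0.697, 1.88 and 1.39 CPM in sham (5.01 ± 0.40, adjusted p = 6.04e-05), inside the span of NS-I/R at 33.4, 29.6 and 62.4 CPM. The difference between the injured groups was 0.10 ± 0.31, adjusted p = 0.838 for Timp1. Fn1, fibronectin, rose from 26.5, 21.6 and 22.7 to 105, 137 and 91.4 CPM (2.24 ± 0.18, adjusted p = 7.09e-05). Col1a1, the main chain of scar collagen, was at 37.4, 30.1 and 37.4 and 63.1, 84.2 and 61 CPM without overlap and missed the threshold (0.99 ± 0.33, adjusted p = 0.0583); it passed without NS-I/R replicate 2 or 3. Timp1, Fn1 and Col1a1 were chosen after their values were seen.

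Resting fibroblast genes fell in 7 of 20 cases, and in 12 without NS-I/R replicate 3. With 1 library left out at a time, the count called ranged from 5 to 12. Abca8a, a lipid transporter, fell from 558, 671 and 630.0 to 199, 242 and 246 CPM (-1.44 ± 0.11, adjusted p = 5.47e-05), with NS-I/R at 180.1, 178 and 176 CPM. Lama2, a laminin chain of the basement membrane chosen after its values were seen, fell from 1524, 1663 and 1524 to 808, 821 and 914 CPM (-0.89 ± 0.13, adjusted p = 0.00135), and its difference from NS-I/R was -0.00 ± 0.13, adjusted p = 0.987. The Enpa-I/R libraries of both genes lay below all sham libraries.

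Endothelial activation genes rose in 7 of 24 cases and fell in 2 (median 0.13). Selp, P-selectin, which tethers leukocytes, went from 0.406, 0.819 and 0.554 to 20.6, 6.97 and 4.17 CPM (4.08 ± 0.67, adjusted p = 0.00227), with 56.5% of its UMIs in endocardial-like nuclei. Sele, E-selectin, went from 0.348, 0.425 and 0.832 to 9.35, 6.55 and 2.66 CPM (3.60 ± 0.60, adjusted p = 0.00237), and NS-I/R was at 9.4, 7.94 and 3.26 CPM. Plaur, the urokinase receptor, rose from 4.53, 3.52 and 4.02 to 24.7, 29.3 and 27.3 CPM (2.76 ± 0.27, adjusted p = 1.63e-04) and differed from NS-I/R by -1.68 ± 0.24, adjusted p = 0.00694. Robo2, a guidance receptor, fell from 33.2, 37.2 and 29.6 to 13.1, 12.1 and 16.8 CPM (-1.25 ± 0.18, adjusted p = 0.00116). Sele was chosen after its values were seen.

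Cardiomyocyte stress genes rose in 12 of 19 cases and fell in 1 (median 1.10). Ankrd1, a stretch-responsive sarcomere protein, went from 261, 339 and 511 to 1386, 871 and 1125 CPM (1.61 ± 0.30, adjusted p = 0.00429), and Nppb, brain natriuretic peptide, from 27.9, 17.6 and 61.3 to 154, 133 and 120.0 CPM (1.94 ± 0.36, adjusted p = 0.004). Nppb stood at 157, 143 and 158 CPM in NS-I/R, a difference of -0.17 ± 0.34, adjusted p = 0.747. Nppa, atrial natriuretic peptide, was called (1.98 ± 0.54, adjusted p = 0.0257) at 179.7, 100.4 and 57.3 CPM against 35.8, 10.9 and 39.9 CPM, but not without any single one of NS-Sham replicates 1 and 2 and Enpa-I/R replicates 1 and 2 (adjusted p = 0.0545 to 0.102). The member that fell was Myh7, the slow myosin heavy chain, from 162, 155 and 169.7 to 81.7, 82.7 and 102 CPM (-0.86 ± 0.13, adjusted p = 0.00179). Ankrd1 and Nppb were chosen after their values were seen.

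Contraction genes were split. Myh6, the main myosin heavy chain of the adult mouse heart, fell from 5548, 6005 and 6727 to 2208, 2841 and 2397 CPM (-1.30 ± 0.13, adjusted p = 2.11e-04), and NS-I/R was at 2419, 2686 and 2385 CPM, a difference of -0.01 ± 0.13, adjusted p = 0.971. Kcnd2, a channel of the transient outward potassium current, fell from 1842, 2072 and 2236 to 796, 673 and 932 CPM (-1.36 ± 0.15, adjusted p = 3.46e-04) and was lower again in NS-I/R, at 306, 409.9 and 346 CPM (1.18 ± 0.15, adjusted p = 0.0048 between the injured groups). Hs3st5, a heparan sulfate sulfotransferase with 97.9% of its UMIs in cardiomyocyte-like nuclei, fell from 621, 759.7 and 644 to 184, 165 and 196 CPM (-1.89 ± 0.27, adjusted p = 0.00113) against 19.9, 23.8 and 47.7 CPM in NS-I/R. Myh6 and Kcnd2 were chosen after their values were seen. Ryr2, the calcium release channel, was at 7258, 9704 and 8684 CPM and 11808, 9934 and 10518 CPM with no call (0.33 ± 0.14, adjusted p = 0.131), and Atp2a2, the calcium pump, was at 2421, 2123 and 2185 and 2523, 1882 and 2521 CPM (0.04 ± 0.17, adjusted p = 0.886); both were chosen after their values were seen. Of the 28 genes, 12 were called higher in Enpa-I/R than in NS-I/R and 0 lower, beside 7.71% and 9.03% of all genes.

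Fatty acid oxidation genes fell in 6 of 26 cases and rose in 1 (median -0.42). The count called ranged from 4 without NS-Sham replicate 2 or Enpa-I/R replicate 3 to 12 without NS-I/R replicate 3, and it was 11 without Enpa-I/R replicate 1. Acadm, medium-chain acyl-CoA dehydrogenase, fell from 186, 205 and 219 to 120.3, 103 and 82.8 CPM (-0.99 ± 0.13, adjusted p = 7.75e-04), beside 101, 98.7 and 101 CPM in NS-I/R. The gene that rose was Ppargc1a, the coactivator PGC-1alpha that drives mitochondrial genes, chosen after its values were seen. It was at 568, 583 and 455 CPM in NS-Sham, 1726, 457 and 2339 CPM in Enpa-I/R and 353, 312 and 428 CPM in NS-I/R. Replicates 1 and 3 of Enpa-I/R were above every other library, while replicate 2 lay within the sham range. The call (1.49 ± 0.44, adjusted p = 0.0363) was lost without any single one of NS-Sham replicates 1, 2 and 3 and Enpa-I/R replicates 1 and 3 (adjusted p = 0.0955 to 0.148). Against NS-I/R the difference was 2.05 ± 0.45, adjusted p = 0.0194, and 97.3% of the Enpa-I/R UMIs were in cardiomyocyte-like nuclei.

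Glycolysis and hypoxia genes rose in 9 of 21 cases and fell in 0 (median 0.62). Slc2a1, the glucose transporter GLUT1, rose from 4.24, 4.06 and 4.64 to 13.6, 19.5 and 12.2 CPM (1.81 ± 0.25, adjusted p = 0.00104), and Slc16a3, a lactate exporter, from 1.45, 1.24 and 2.36 to 8.69, 15.3 and 6.08 CPM (2.62 ± 0.38, adjusted p = 0.00128). Oxidative stress genes rose in 8 of 16 cases. Among them Mt2, a metallothionein that binds zinc, went from 6.44, 2.94 and 3.95 to 139.8, 87.1 and 90.1 CPM (4.60 ± 0.40, adjusted p = 1.00e-04), and Hmox1, heme oxygenase 1, from 1.97, 1.67 and 0.901 to 18.1, 28 and 13.7 CPM (3.68 ± 0.32, adjusted p = 1.00e-04). No library of Enpa-I/R overlapped sham for these 4 genes.

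Heat-shock chaperones fold proteins in the cytosol and, for some members, in the endoplasmic reticulum (ER). They rose in 4 of 20 cases and fell in 0 (median 0.21). The count called was 7 without NS-I/R replicate 1 or 3, and it ranged from 3 to 7 with 1 library left out at a time. Hspb1, a small chaperone of the cytosol, rose from 25.4, 15.9 and 29.2 to 60.5, 58.1 and 61.3 CPM without overlap (1.36 ± 0.18, adjusted p = 8.71e-04), and NS-I/R was at 127, 131 and 118 CPM, a difference of -1.06 ± 0.18, adjusted p = 0.0103. Hspa1a, an inducible cytosolic heat-shock protein, was at 1.8, 0.88 and 1.39 CPM in NS-Sham, 3.39, 11.1 and 2.16 CPM in Enpa-I/R and 231, 86.5 and 95.9 CPM in NS-I/R. It missed the threshold against sham (2.08 ± 0.69, adjusted p = 0.0574), passed it when Enpa-I/R replicate 3 or one of NS-I/R replicates 1 and 3 was left out, and differed from NS-I/R by -4.66 ± 0.60, adjusted p = 0.0048. Hspa5, the ER chaperone BiP, was at 71.2, 57.1 and 65.8 CPM in NS-Sham, 155, 195 and 162 CPM in Enpa-I/R and 192, 143 and 183 CPM in NS-I/R. All injured libraries of Hspa5 were above all sham libraries (1.40 ± 0.14, adjusted p = 2.14e-04), and the injured groups differed by -0.02 ± 0.14, adjusted p = 0.937. Hspa1a was chosen after its values were seen, and Hspa1b, a near-identical copy, can share reads with it.

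Misfolded protein in the ER activates transcription factors that bind the ER stress response element, CCAAT and CCACG parted by 9 bases. The element was searched on both strands in the 250 bases before the start of each gene in RefSeq's promoter windows (GRCm38.p6), and it was in 33 of 27025 windows (0.122%). It was in 2 of 21 windows of the unfolded protein list, those of Hspa5 and of Hsp90b1, another ER chaperone. They are printed because both genes stayed raised under the drug. Capitals mark the element, which runs on the other strand in the second match of Hsp90b1, and a match is a description of letters.
Hspa5, chr2:34771840-34772089, plus strand: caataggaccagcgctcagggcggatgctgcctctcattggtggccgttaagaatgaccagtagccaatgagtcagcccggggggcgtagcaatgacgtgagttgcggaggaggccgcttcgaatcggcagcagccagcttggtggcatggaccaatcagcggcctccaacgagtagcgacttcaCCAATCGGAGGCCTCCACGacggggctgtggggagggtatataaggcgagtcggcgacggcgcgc
Hsp90b1, chr10:86705445-86705694, minus strand: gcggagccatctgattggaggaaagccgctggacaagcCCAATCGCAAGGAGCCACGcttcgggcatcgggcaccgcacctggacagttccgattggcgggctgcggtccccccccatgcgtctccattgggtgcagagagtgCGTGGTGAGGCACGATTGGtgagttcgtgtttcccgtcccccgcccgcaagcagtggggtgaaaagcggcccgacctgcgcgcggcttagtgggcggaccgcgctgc
The match begins 65 bases before the start of Hspa5, and 212 and 107 bases before that of Hsp90b1. Hsp90b1 went from 95.6, 81.2 and 91.3 to 151, 195 and 205 CPM (1.04 ± 0.18, adjusted p = 0.00297), and NS-I/R was at 124, 123 and 188 CPM. Sdf2l1, a partner of BiP, went from 0.464, 0.607 and 0.901 to 3.57, 5.44 and 3.62 CPM (2.69 ± 0.60, adjusted p = 0.0106), while the NS-I/R libraries were at 0.958, 0.862 and 4.11 CPM; the call was lost without NS-Sham replicate 2 (adjusted p = 0.053). Both were chosen after their values were seen.

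Over the unfolded protein and amino acid stress list the median was 0.97 in Enpa-I/R against sham and 0.93 in NS-I/R against the same sham libraries. Genes that supply amino acids were among the 14 that rose: Asns, asparagine synthetase, went from 1.51, 1.27 and 1.73 to 5.09, 5.76 and 5.78 CPM (1.90 ± 0.19, adjusted p = 2.22e-04), and Slc7a5, a transporter of large neutral amino acids, from 2.9, 1.88 and 1.46 to 7.79, 9.4 and 8.9 CPM (2.06 ± 0.28, adjusted p = 8.94e-04). Asns and Slc7a5 were chosen after their values were seen. Herpud1, which takes part in ER protein degradation, fell from 82.3, 103 and 79.7 to 49.8, 49 and 64.8 CPM (-0.70 ± 0.15, adjusted p = 0.00812), as did Vldlr, a lipoprotein receptor (-1.13 ± 0.18, adjusted p = 0.00184). Of the 21, 5 were lower in Enpa-I/R than in NS-I/R, and 0 higher, beside 9.03% and 7.71% of all genes.

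**Figure D3:**
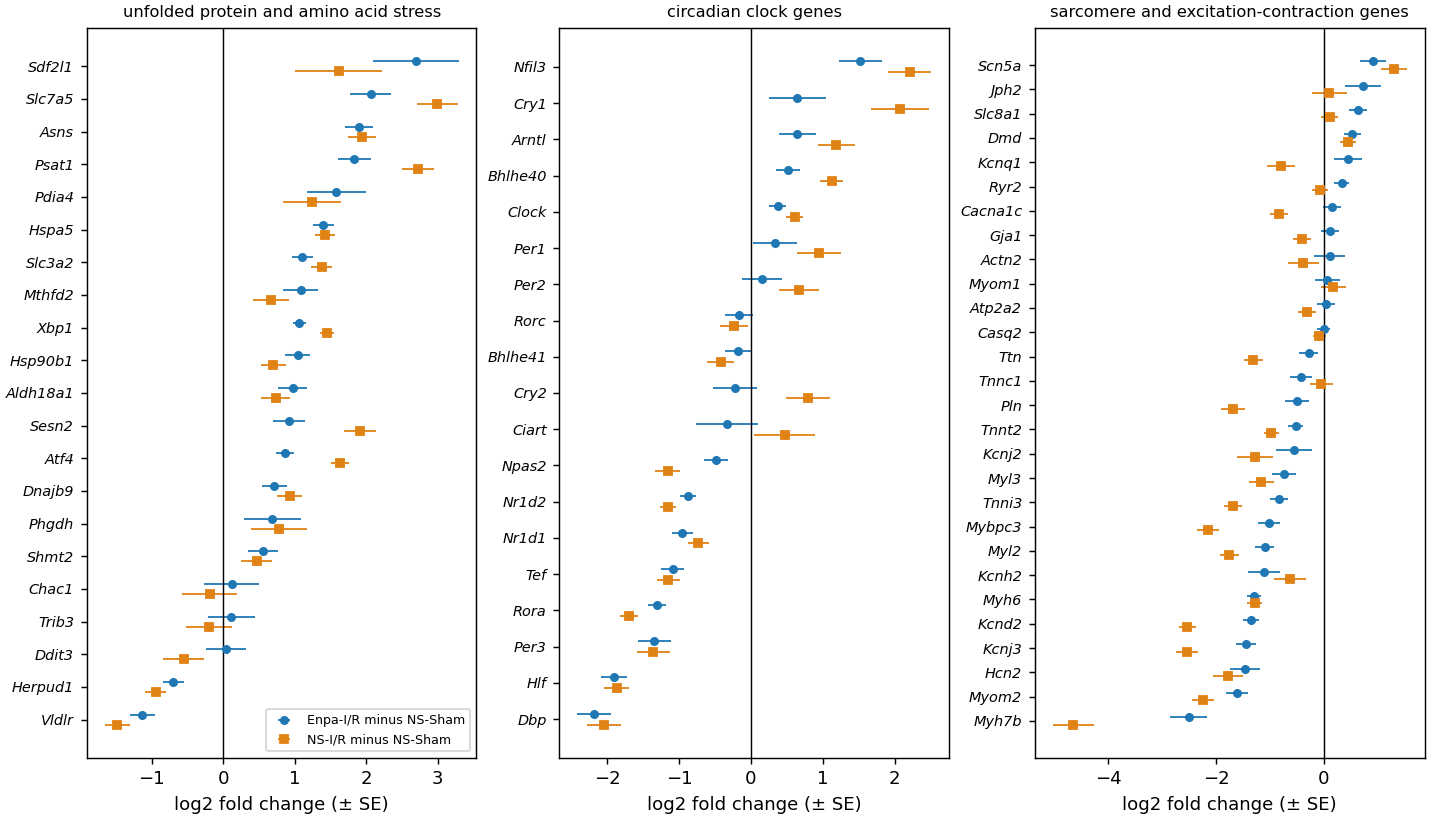
Log2 fold change against NS-Sham (horizontal, ± SE) of each tested gene of 3 lists over all nuclei, for Enpa-I/R (blue circles) and NS-I/R (orange squares), which share the NS-Sham libraries. Hspa5 lies at 1.40 and 1.42 and Dbp at -2.18 and -2.04 in Enpa-I/R and NS-I/R, while Myh7b lies at -2.51 and -4.65.

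Circadian clock genes fell in 7 of 19 cases and rose in 2 (median -0.22). The 7 were outputs and loop members of the clock: Dbp, Hlf and Tef, which are transcription factors of the PAR bZIP family, Per3, Rora, Nr1d1 and Nr1d2. Dbp fell from 40.1, 66.5 and 74.2 to 15.4, 11.7 and 12.6 CPM (-2.18 ± 0.24, adjusted p = 2.88e-04), and NS-I/R was at 14, 12.1 and 17.9 CPM, a difference of -0.14 ± 0.23, adjusted p = 0.695. Hlf fell from 78.5, 127 and 109 to 25.8, 31.9 and 26.4 CPM (-1.90 ± 0.18, adjusted p = 1.44e-04), beside 29.6, 31.7 and 24.8 CPM in NS-I/R. Nfil3, a repressor that binds the same sites as Dbp, rose from 6.56, 3.64 and 3.81 to 11.7, 10.7 and 17.5 CPM (1.52 ± 0.30, adjusted p = 0.00558). Arntl, Clock, Per1, Per2, Cry1 and Cry2, of the core loop, were not called, with log2 fold changes of -0.22 to 0.65; without NS-I/R replicate 3 Arntl, Cry1 and Clock were called (adjusted p = 0.0324, 0.0121 and 0.00554), and without NS-I/R replicate 2 Clock was (0.0456). Besides Dbp, Hlf and Nfil3, the clock genes were chosen after their values were seen. The hour of collection is not given in the sources used here.

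Interferon-stimulated genes, which TLR7 signalling through IRF7 can induce, did not stand above sham. Of the 28, 1 rose and 4 fell (median -0.16), beside 11.3% and 10.3% of all genes. The count called was 9 without NS-I/R replicate 3, and 1 to 3 without NS-Sham replicate 2 or 3, NS-I/R replicate 1 or any single Enpa-I/R library. Gbp3, a guanylate-binding protein, fell from 8.19, 14.4 and 17.4 to 5.16, 4.97 and 3.72 CPM (-1.53 ± 0.28, adjusted p = 0.00389), and 49.6% of its UMIs were in endothelial-like nuclei. Ifi203, a DNA-binding protein, fell from 109.7, 111 and 94.7 to 45.8, 56.1 and 46.3 CPM (-1.09 ± 0.26, adjusted p = 0.0146), but not without NS-Sham replicate 2 or Enpa-I/R replicate 1 or 3 (adjusted p = 0.0526 to 0.0604). In NS-I/R, 17 of the 28 were called lower than in sham (24.2% of all genes were), 1 higher, and the median was -0.94. The Enpa-I/R and NS-I/R groups differed directly in 2 of the 28, both higher in Enpa-I/R. That is near the share of all genes, of which 7.71% were called higher and 9.03% lower in Enpa-I/R than in NS-I/R.

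Cell division genes fell in 4 of 28 cases and rose in 3, near the shares of all genes (10.3% lower, 11.3% higher). The median was -0.42. Of these 7 calls, 3 or 4 were made without NS-Sham replicate 1 or 3 or any single Enpa-I/R library. Cenpf, a kinetochore protein, fell from 9.69, 14.1 and 13.2 to 2.6, 2.11 and 2.56 CPM (-2.34 ± 0.32, adjusted p = 9.15e-04), and Mki67, the marker of cycling cells chosen after its values were seen, from 4.47, 5.58 and 7 to 1.56, 1.64 and 2.11 CPM (-1.68 ± 0.35, adjusted p = 0.00791). The 3 that rose, the replication genes Mcm3, Mcm5 and Pcna, had log2 fold changes of 0.49 to 1.08. The calls of Mcm5 (adjusted p = 0.0633 to 0.141) and Pcna (0.0701 to 0.118) were lost without any 1 NS-Sham or Enpa-I/R library, and that of Mcm3 without any single one of NS-Sham replicates 1 and 3 and Enpa-I/R replicates 1 and 2 (0.0665 to 0.0823). These 3 were chosen after their values were seen.

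Nuclei were clustered without the listed genes and named from markers, which gave 42089 nuclei in named classes after removal of doublet calls. Neutrophil-like nuclei made up 0.0589%, 0.0309% and 0.0602% of NS-Sham libraries and 2.4%, 5.14% and 1.45% of Enpa-I/R libraries, against 9.87%, 8.37% and 11.4% in NS-I/R. Macrophage-like nuclei made up 7.51%, 6.42% and 4.9% in NS-Sham and 7.93%, 11.4% and 8.11% in Enpa-I/R, and endothelial-like nuclei 29.3%, 30.8% and 30.9% against 28.0%, 28.7% and 29.0%. For these 3 classes the groups did not overlap. The exact two-sided permutation test gave p = 0.1, the smallest it can give with 3 against 3, or 0.382 adjusted over 42 tests. Cardiomyocyte-like (22.9% ± 3.14 in Enpa-I/R, 25.4% ± 2.80 in NS-Sham, SD, n = 3) and fibroblast-like shares (19.6% ± 0.201 and 20.5% ± 1.33) overlapped. Over all nuclei the summed level of the 8 neutrophil markers was 6.81 to 11.5 CPM in NS-Sham and 102.0 to 236 CPM in Enpa-I/R, with 7 of 8 called higher. The 5 hemoglobin and heme markers of red cells were all called lower, at 72.4 to 109 CPM after 154 to 204 CPM; their part in the other results was not tested. Leaving out the neutrophil-named clusters gave 3865 called genes over all nuclei.

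**Figure D4:**
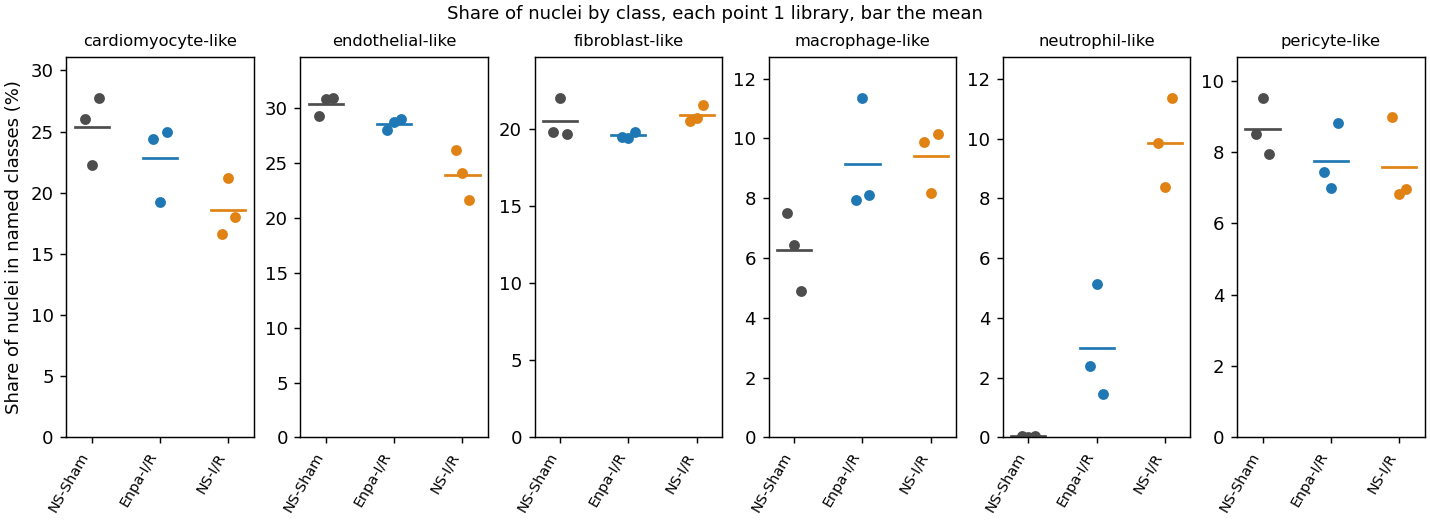
Share of nuclei (%, vertical) in each of 6 classes, 1 point per library with a bar at the group mean, for NS-Sham, Enpa-I/R and NS-I/R. Neutrophil-like shares in Enpa-I/R (1.45% to 5.14%) lie between those of the other groups, and cardiomyocyte-like and fibroblast-like shares of Enpa-I/R and NS-Sham overlap.

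Within cardiomyocyte-like nuclei 2534 of 13836 genes were called (18.3%), 1276 higher (9.22%) and 1258 lower (9.09%). The count was 1356 to 1552 without any single one of NS-Sham replicates 2 and 3 and Enpa-I/R replicates 1 and 3, and 4350 without NS-I/R replicate 3. Most sham nuclei of the class (73.29%) were in 1 cluster, while those of Enpa-I/R were in that cluster (34.9%) and another (36.04%). Pak3, a kinase that acts on the cytoskeleton, went from 1.07, 1.71 and 3.13 to 83.3, 71.1 and 57.3 CPM within the class (5.19 ± 0.43, adjusted p = 8.99e-05), with NS-I/R at 43.3, 41.1 and 92.7 CPM. Serpina3n, a protease inhibitor of the acute phase, had 3 UMIs in sham and 332 in Enpa-I/R, a ratio of 112 with a counting interval of 38.0 to 547. Plxnb1, a semaphorin receptor, fell from 60.2, 60.2 and 73.4 to 7.46, 9.72 and 10.8 CPM (-2.80 ± 0.21, adjusted p = 7.36e-05). Klhl33, Scin and Lcn2 were the other named genes of the class.

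Stress genes rose within the cardiomyocyte-like class in 13 of 19 cases and fell in 1 (median 1.49). Ankrd1 was at 404, 548 and 772 CPM in NS-Sham, 2238, 1698 and 1853 CPM in Enpa-I/R and 4590.0, 4547 and 2759 CPM in NS-I/R (1.75 ± 0.27, adjusted p = 0.00197 against sham). Sarcomere and excitation-contraction genes fell in 9 of 28 and rose in 3, and Myh6 went from 8794, 9822 and 9989 to 3226, 5709.6 and 3931 CPM (-1.15 ± 0.20, adjusted p = 0.00403). Ppargc1a kept the split between libraries, at 2974, 1044 and 4307 CPM in Enpa-I/R after 999.8, 992 and 747 CPM in NS-Sham. Its call (1.60 ± 0.41, adjusted p = 0.0226) was lost without any single one of NS-Sham replicates 1, 2 and 3 and Enpa-I/R replicates 1 and 3 (adjusted p = 0.0626 to 0.0944). Sarcomere genes were called lower in other classes too, in 13 of 25 cases in fibroblast-like and 11 of 24 in macrophage-like nuclei. Background RNA was not removed, and its part in these counts was not tested. Genes of this paragraph were chosen after their values were seen.

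Within fibroblast-like nuclei 3266 of 13389 genes were called (24.4%), 1634 higher and 1632 lower (12.2% each). Without NS-Sham replicate 2 the count was 2146, and without NS-I/R replicate 3 it was 4815. In Enpa-I/R, 34.23% of the class was in a cluster that held 0.1451% of it in sham. Tnc went from 5.36, 3.43 and 4.09 to 471, 497 and 675 CPM (7.04 ± 0.32, adjusted p = 4.55e-07) and Hmga2 from 1.24, 1.61 and 1.02 to 146, 159 and 111 CPM (6.61 ± 0.51, adjusted p = 1.32e-05). Col6a6 fell from 280.2, 235 and 240.3 to 28.8, 34 and 44.8 CPM (-2.82 ± 0.18, adjusted p = 4.84e-06), and Adra1a, an adrenergic receptor, from 23.5, 45.8 and 36.3 to 3.85, 4.82 and 2.36 CPM (-3.26 ± 0.42, adjusted p = 2.45e-04). Resting fibroblast genes fell in 12 of 20 cases and rose in 0 (median -0.74). Cell division genes rose in 6 of 18 cases and fell in 0. The 6 were Mcm2, Mcm4, Mcm5, Mcm6, Pcna and E2f1, of DNA replication and its onset, with log2 fold changes of 0.91 to 2.70. The calls of E2f1 (adjusted p = 0.0572 to 0.153) and Mcm2 (0.0804 to 0.108) were lost without any 1 NS-Sham or Enpa-I/R library, and that of Mcm4 without NS-Sham replicate 1, 2 or 3 or Enpa-I/R replicate 2 (0.0565 to 0.0953). Those of Mcm5 (0.0567) and Mcm6 (0.0506) were lost without NS-Sham replicate 2. All 6 were chosen after their values were seen.

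Within macrophage-like nuclei 1772 of 10578 genes were called (16.8%), 920 higher (8.7%) and 852 lower (8.05%), and 1107 were called without NS-Sham replicate 2. The class held 55 of its 834 sham nuclei in a cluster that held 33.31% of it in Enpa-I/R. Arg1 went from 0, 1.99 and 0 to 512, 568 and 534 CPM, with 2 UMIs in sham, and NS-I/R was at 959, 865 and 1080.3 CPM. Spp1 had 1 UMI in sham and 1189 in Enpa-I/R, a ratio of 718 with a counting interval of 129 to 28400. Chil3 and Cxcl3, a neutrophil chemokine, had none in sham and were higher by at least 79.9-fold and at least 53.8-fold, taking 3 counts in the sham group as the floor. Vcan, the proteoglycan versican of young monocyte-derived cells, went from 20.9, 0.994 and 10.5 to 715, 656 and 525 CPM (6.08 ± 0.40, adjusted p = 3.84e-07). Itgam went from 164, 182 and 213 to 714, 638 and 662 CPM (1.86 ± 0.20, adjusted p = 2.65e-05) and Itgb2 from 77.1, 57.6 and 71.1 to 152, 148 and 164 CPM (1.19 ± 0.17, adjusted p = 3.16e-04). Arg1 and Vcan were chosen after their values were seen.

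Tlr7 itself was lower within macrophage-like nuclei, at 193, 275 and 166 CPM in NS-Sham and 135, 128 and 114 CPM in Enpa-I/R (-0.77 ± 0.20, adjusted p = 0.0163). The call was lost without NS-Sham replicate 2 or Enpa-I/R replicate 2 or 3 (adjusted p = 0.0546 to 0.142), and NS-I/R was at 134, 124 and 91 CPM. Resident macrophage genes fell in 6 of 14 cases and rose in 0 (median -0.56). Timd4, a receptor for dying cells, fell from 98, 137 and 94.9 to 44, 19.2 and 11.7 CPM (-2.13 ± 0.33, adjusted p = 6.16e-04), and Cx3cr1, the fractalkine receptor, from 48.2, 104 and 94.9 to 13.3, 37.6 and 21.3 CPM (-1.75 ± 0.36, adjusted p = 0.0037). Over all nuclei Cx3cr1 moved the other way, from 7.89, 10.3 and 10.7 to 12.4, 17.9 and 17.2 CPM (0.72 ± 0.17, adjusted p = 0.0142), although not without NS-Sham replicate 1 or Enpa-I/R replicate 2 or 3 (adjusted p = 0.055 to 0.0552). The 2 CPM scales have different totals, all nuclei and the class. Timd4 and Cx3cr1 in the class were chosen after their values were seen.

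Cell division genes fell within the macrophage-like class in 6 of 13 cases and rose in 0 (median -1.87). Cenpf was at 9.63, 64.6 and 97.5 CPM in NS-Sham, 0.831, 0.738 and 2.13 CPM in Enpa-I/R and 2.49, 2.68 and 4.2 CPM in NS-I/R (-5.44 ± 0.78, adjusted p = 2.93e-04 against sham). Aspm, a spindle protein, had 75 UMIs in sham and 0 in Enpa-I/R, at least 41.4-fold lower. Mki67, chosen after its values were seen, was at 4.82, 98.4 and 182 CPM in NS-Sham, so that replicate 1 lay within the Enpa-I/R range of 12.5, 4.43 and 14.9 CPM. Its call (-3.13 ± 0.82, adjusted p = 0.0166) was lost without any single one of NS-Sham replicates 2 and 3 and Enpa-I/R replicates 1 and 2 (adjusted p = 0.0518 to 0.0827). Glycolysis and hypoxia genes rose in 12 of 19 cases (median 1.14), among them Hif1a, the hypoxia-inducible factor (2.35, adjusted p = 4.24e-05, chosen after its values were seen).

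**Figure D5:**
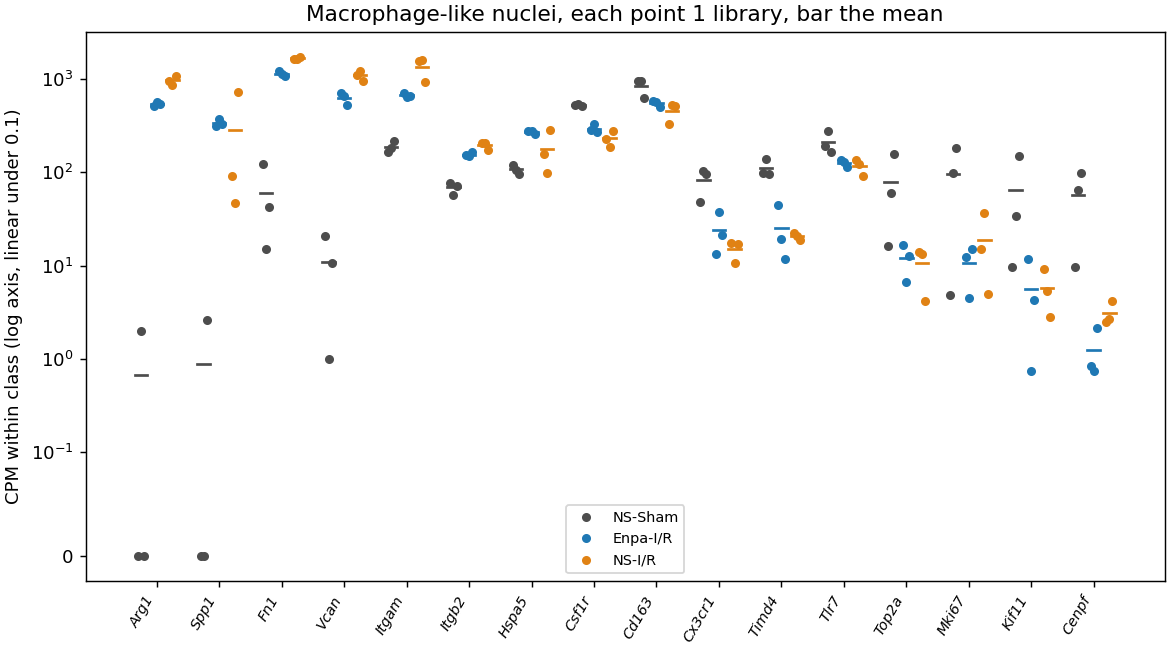
CPM within macrophage-like nuclei (vertical, log axis, linear under 0.1) of 16 genes, 1 point per library with a bar at the group mean. Arg1, Spp1, Vcan and Itgam lie higher in Enpa-I/R than in NS-Sham, Timd4 and Cenpf lower, and Mki67, Top2a and Kif11 overlap with 1 sham library.

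Within endothelial-like nuclei 1519 of 11877 genes were called (12.8%), 849 higher (7.15%) and 670 lower (5.64%). The count was 807 to 972 without any 1 NS-Sham or Enpa-I/R library and 2318 without NS-I/R replicate 3. The largest cluster of the class held 59.65% of it in sham and 21.14% in Enpa-I/R. Selp went from 0.974, 1.52 and 0 to 53.3, 26.9 and 23.2 CPM (5.05 ± 0.63, adjusted p = 1.80e-04). Ecm2, a matrix protein, fell from 76, 98.2 and 104 to 15.6, 17.6 and 11.4 CPM (-2.63 ± 0.21, adjusted p = 8.13e-06), and Cd247, a T cell receptor chain, from 83.3, 88.3 and 68.3 to 9.1, 10.7 and 21.5 CPM (-2.57 ± 0.28, adjusted p = 7.20e-05). Lcn2, Chil3 and S100a8 had no UMI in sham and were at least 46.5-fold, 35.9-fold and 34.8-fold higher. Of these, S100a8 was at 0.0256 UMIs per endothelial-like nucleus, 0.0251 per fibroblast-like and 0.0239 per pericyte-like nucleus in Enpa-I/R, and at 1.90 per neutrophil-like nucleus. Interferon-stimulated genes fell in 9 of 26 cases and rose in 0 (median -0.55), with Gbp3 at 18.5, 22.2 and 14.9 CPM after 32.6, 61.9 and 79.3 CPM (-1.64 ± 0.30, adjusted p = 0.0026). Selp and Gbp3 in this class were chosen after their values were seen.

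Within pericyte-like nuclei 425 of 9402 genes were called (4.52%), 263 higher (2.8%) and 162 lower (1.72%). The count was 186 to 235 without any 1 NS-Sham or Enpa-I/R library and 856 without NS-I/R replicate 3. In Enpa-I/R, 15.94% of the class was in a cluster that held 1 of its 1170 sham nuclei, and the part of that cluster in the changes of the class was not tested. Il6, Timp1 and Adamts4, a protease of matrix proteoglycans, led the increases. Il6 had 0 UMIs in sham and 77 in Enpa-I/R, at least 30.7-fold higher, with Enpa-I/R at 22.1, 46.6 and 29.4 CPM and NS-I/R at 345, 278 and 128 CPM. Cytokines and chemokines rose in 8 of 10 tested cases. Cxcl5 went from 0, 0.643 and 0 to 42.1, 55.9 and 36.2 CPM, where sham held 1 UMI, and NS-I/R was at 30.2, 61.2 and 85.8 CPM. Cxcl5 was chosen after its values were seen. Rnf207, a regulator of a cardiac potassium channel, fell from 20.3, 27 and 28.8 to 2.1, 4.66 and 4.52 CPM (-2.75 ± 0.43, adjusted p = 0.00136). It had 73 UMIs in sham and 9 in Enpa-I/R. Sarcomere and excitation-contraction genes were also called lower in this class, in 8 of 25 cases, and 1 was called higher. The part of background RNA in these changes was not tested.

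Some changes were found in several classes. Hspa5 rose from a mean of 57.6 to 124 CPM in cardiomyocyte-like, from 74.3 to 255 CPM in fibroblast-like, from 58.7 to 159.9 CPM in endothelial-like and from 107 to 270.2 CPM in macrophage-like nuclei, with log2 fold changes of 1.11 to 1.78 and adjusted p of 0.00516 or less. In pericyte-like nuclei it was 1.19 ± 0.30, adjusted p = 0.0319, a call lost without any 1 NS-Sham or Enpa-I/R library (adjusted p = 0.062 to 0.204). Dbp fell in cardiomyocyte-like (-2.35), fibroblast-like (-2.63), endothelial-like (-1.68) and pericyte-like nuclei (-2.09), with no library of Enpa-I/R in the range of sham in any of these 4. Clock genes fell in 8 of 19, 8 of 18, 4 of 18 and 6 of 15 tested cases in those classes. They rose there in 1, 1, 2 and 0 cases. In macrophage-like nuclei 3 of 14 fell and 2 rose. Of all genes, 9.09%, 12.2%, 5.64% and 1.72% were called lower in those classes, and 9.22%, 12.2%, 7.15% and 2.8% higher. In macrophage-like nuclei these shares were 8.05% lower and 8.7% higher. Dbp and Hspa5 within classes were chosen after their values were seen.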

How the data were processed

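Nuclei from 9 hearts were profiled by single-nucleus RNA-seq (10x 3' chemistry), 1 library per heart. The authors deposited raw UMI counts per gene and barcode for 32285 genes. Cell Ranger 8.0.0 made them per the file headers, while the submitters' processing notes name Cell Ranger 6.1.1, Seurat, GRCm39 and GRCh38 without roles. The members and lists were chosen with earlier results of these data known.

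Counts were summed per library over barcodes with at least 500 genes and at most 5% mitochondrial UMIs, doublets included. The 9 sums were fitted together with edgeR 4.0.16 (R 4.3.3; filterByExpr, TMM, quasi-likelihood test, Benjamini-Hochberg adjustment over all genes tested, threshold 0.05). The SE is the size of the log2 fold change divided by the square root of F. For classes, all 44430 kept barcodes, doublets included, were clustered with scanpy 1.11.5 (Leiden, resolution 1) without listed, mitochondrial or sex-linked genes. The 30 clusters were named from at least 3 markers each. After clustering, the barcodes ranked highest by Scrublet were removed at 0.8% per 1000 barcodes, which left 42573 nuclei. Clusters with over 50% doublet calls (4, with 484 nuclei) were left out, a threshold set after seeing the data. UMIs were then summed per class and library and fitted the same way. Shares were compared with exact permutation tests (scipy 1.17.1). Counting intervals are 95% and cover counting error only, and the floor is 3 counts over a group.

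The genes named were, over all nuclei, the 10 largest called changes in each direction with at least 10 CPM in the higher group and no overlap of libraries, up to 2 per list and direction under the same limits, up to 5 in each direction farthest from NS-I/R, and Tlr7, Itgam and Itgb2; per class, up to 3 in each direction. One gene that the rule names is not reported here. The fit was tested on simulated data for Enpa-I/R minus NS-Sham: of 200 genes changed by 1 on the log2 scale among 18056, 52.5% were recovered, and 5 unchanged genes were called. No label says that the hearts of a group were processed separately beyond being separate samples, so p-values measure the spread between these samples.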

Additional observations from a re-analysis of the deposited data

How the results depend on the processing

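Of 209 named genes, 127 kept their side of the threshold under every alternative run. None of those called changed direction, while Tlr7 (-0.21 to 0.25), Atp2a2 (-0.03 to 0.17) and C7 (-0.24 to 0.35), which were not called, did without 1 library. Of the gene-by-alternative values, 222 lost a call and 27 gained one. The causes were not tested. In Enpa-I/R minus NS-Sham over all nuclei, 5923 genes were called with only the 6 libraries of the contrast, 314 in a test against a 2-fold change (210 higher, 104 lower), and 2376 to 6066 without 1 library. Between Enpa-I/R and NS-I/R the counts were 689 with 6 libraries and 265 to 8247 without 1 library. Of the listed genes, 65 were called against a 2-fold change. With 6 libraries, 4015 genes were called in cardiomyocyte-like and 920 in pericyte-like nuclei, where 653 were called with no low-count filter. Without 1 library the class counts were 1356 to 4350 (cardiomyocyte-like), 2146 to 4815 (fibroblast-like), 807 to 2318 (endothelial-like), 1107 to 2368 (macrophage-like) and 186 to 856 (pericyte-like). Differences in share (Enpa-I/R minus NS-Sham, in percentage points) changed sign without 1 library in these classes, given as the lowest and highest value: adipocyte-like -0.0637 to 0.0394, T and NK-like -0.119 to 0.0873, Schwann-like -0.163 to 0.0664, lymphatic endothelial-like -0.111 to 0.0669 and endocardial-like -0.111 to 0.867.

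Groups share replicate numbers in the labels, but same-numbered libraries did not deviate together (correlations of -0.228 to 0.11 across genes), so the numbers were not taken as pairs. With the replicate block, 3396 genes were called against NS-Sham and 2340 against NS-I/R. Counting depth limits genes with few UMIs in a class, whose folds are given as ratios with intervals or as bounds.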
